A study of Mus musculus with 12 samples.

Results

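The 10 genes described here are markers of adipocytes, the fat-storing cells of adipose tissue, and were read in tumors that had grown under the skin as a sign of fat tissue near the tumor. They were chosen by name and not by a cutoff on their values, although earlier results of these data were known: Adipoq, Plin1, Plin4, Fabp4, Cidec, Lep, Retn, Cfd, Lipe and Pparg. All 10 had a row among the 32288 rows of each of the 12 libraries, and all 10 passed the filter of at least 10 counts over the libraries. The libraries came from DBA/2 mice, of which each carried 1 subcutaneous tumor of P815, a mouse mastocytoma line. P815-IFNG tumors grew from a single-cell clone that holds the light-sensing activator GAVPO under the EF-1α promoter with blasticidin resistance, the GAVPO-driven lightON module of Ifng, Cxcl10 and the luciferase hGluc, and mRuby with firefly luciferase. P815-M tumors grew from 1 other clone that holds only mRuby with firefly luciferase, which both lines share. A line is thus 1 clone, and the effect of the clone cannot be told apart from that of the module. Mice of the light group were illuminated with blue light for 12 h of each cycle over 6 days by the labels, whereas the dark group was not illuminated. Each of the 4 groups had 3 mice, given as separate biological replicates, and the sex and age of single mice are not in the labels, although the study used both sexes.

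Mature white adipocytes hold their triglycerides in a single large lipid droplet and secrete hormones and other proteins, the adipokines. A fat layer lies beneath the skin of the mouse, so a tumor injected under the skin can border on fat or enclose it. Their transcription program rests on the nuclear receptor PPARγ and on C/EBP factors, which act on many genes of lipid storage. Of the 10 genes, Adipoq, Lep, Retn and Cfd encode secreted proteins, Plin1, Plin4 and Cidec proteins of the lipid droplet, Fabp4 and Lipe a fatty acid carrier and a lipase, and Pparg the receptor PPARγ. Fabp4 is also known from capillary endothelium and macrophages, and Pparg from macrophages. In bulk RNA of a tumor, fewer adipocytes and less RNA per adipocyte cannot be told apart.

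The totals of counts were uneven. Below, deep and shallower refer to these totals and not to the number of reads sequenced. Of the 12 libraries, 10 had between 2211234 and 2946792 counts. The third replicates of the P815-IFNG light and dark groups had 41473500 and 42338096 counts, and these 2, the only ones over 10000000 counts, are called the deep libraries and shown apart. Levels are in CPM, the counts of a gene scaled to a library total of 1000000 without the 13 mitochondrial genes. In these units 3 counts stood for 1.05 to 1.39 CPM at the lower totals but for 0.0774 and 0.0744 CPM at the higher. The deep libraries also stood apart in the share of mt-Nd6 among the counts of mitochondrial coding genes, at 3.56% and 3.85% against 29.0% to 47.9%. The summed level of 8 mast cell genes was 12066 and 8975 CPM in them against 1446 to 2484 CPM in the others. Of the mast cell genes, Kit had 301 to 742 CPM and Cpa3 599 to 8438 CPM, whereas Fcer1a was at or below 0.460 CPM and Ms4a2 at or below 0.722 CPM in every library. Ifng, which the module carries, had 1.85 to 15.2 CPM in the P815-IFNG light group and 0.744 to 2.09 CPM in the P815-IFNG dark group. The median of the P815-IFNG light group, 1.96 CPM, was below the highest P815-IFNG dark value. In P815-M tumors Ifng had 0.438 to 1.84 CPM in light and 0 to 1.19 CPM in the dark. The counts also held 3 rows of knock-in sequences, and the part of the module in the Ifng row was not tested. The gene 4732471J01Rik, antisense to Lipe, had 68.4 to 272 CPM in the 10 shallower libraries and 6.01 and 3.64 CPM in the deep ones. The kit was stranded, and whether the strand counted matched it in every library is not stated, for any member. The part of these differences in the values below was not tested. Depth, library kind, the strand counted and mouse cannot be told apart in the third P815-IFNG replicates.

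The promoters of the 4 adipokine genes are shown because these genes are secreted marks of the fat cell, and because their levels moved together across the libraries below. They are the 120 bases before the start of the RefSeq transcript in GRCm38.p6, written 5′ to 3′ on the strand of the gene, and capitals mark a match to TTGCNNAA, the letters searched for C/EBP. The stretches are chr16:23146416-23146535 on the plus strand for Adipoq, chr6:29060101-29060220 on the plus strand for Lep, chr8:3655650-3655769 on the plus strand for Retn, and chr10:79890733-79890852 on the plus strand for Cfd.
Adipoq: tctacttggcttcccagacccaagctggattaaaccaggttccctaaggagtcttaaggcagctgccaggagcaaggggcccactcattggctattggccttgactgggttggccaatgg
Lep: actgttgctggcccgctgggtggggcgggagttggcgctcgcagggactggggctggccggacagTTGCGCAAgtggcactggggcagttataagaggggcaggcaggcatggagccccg
Retn: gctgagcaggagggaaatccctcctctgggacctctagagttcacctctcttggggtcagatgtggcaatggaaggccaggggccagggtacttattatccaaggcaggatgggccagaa
Cfd: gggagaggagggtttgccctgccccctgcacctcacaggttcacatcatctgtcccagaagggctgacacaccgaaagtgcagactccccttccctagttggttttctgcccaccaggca
Of these 4 stretches, the one of Lep held a match, 55 bases before the start. Over the 250 bases before each start and on both strands, TTGCNNAA was found in 9.56% of 32851 promoters, and in 4 of the 13 promoters listed for the 9 members with an entry, those of Cidec, Lep, Plin1 and Pparg. The letters AGGTCA, a core sequence of nuclear receptor sites, were found in 14.02% of all promoters and in 2 of the 13, both of Pparg. A match is a description of the letters in the window only.

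Adipoq encodes adiponectin, a hormone secreted by adipocytes (chromosome 16, 23146536 to 23158028, GRCm38). Its level was 1.23 and 0.927 CPM in the P815-IFNG light group and 9.44 CPM in the deep light library, against 11.9 and 10.1 CPM in the P815-IFNG dark group and 1.29 CPM in the deep dark library. The P815-M light libraries had 0, 0 and 0.876 CPM, and the P815-M dark libraries had 1.19, 0 and 0 CPM. The level was thus about 10 CPM in 3 libraries of P815-IFNG tumors, 2 dark and 1 deep light, and at most 1.29 CPM in the other 9 libraries. P815-IFNG light replicate 2 and P815-M light replicate 3 had 2 counts each, so their order was set by library size alone.

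Lep encodes leptin, the hormone that reports fat stores to the brain (chromosome 6, 29060220 to 29073877). Its level was 0.819 and 0 CPM in the P815-IFNG light group with 2.06 CPM in the deep library, and 4.19 and 1.80 CPM in the dark group with 0.0744 CPM in the deep library. In P815-M tumors, Lep had 1 count in 1 of the 3 light libraries and 1 count in 1 of the 3 dark libraries. Retn encodes resistin, an adipokine of mouse fat (chromosome 8, 3655770 to 3660110). Its level was 0.410, 0.927 and, in the deep library, 2.06 CPM in the P815-IFNG light group, and 2.44, 1.80 and, in the deep library, 1.07 CPM in the dark group. Retn had 2 counts in 1 P815-M light library and no count in the other 5 P815-M libraries. Both genes thus stayed below 3 counts in every P815-M library.

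Cfd encodes adipsin, a serine protease of the alternative complement pathway (chromosome 10, 79890853 to 79892655). Its level was 9.42, 1.39 and, in the deep library, 22.8 CPM in the P815-IFNG light group, and 60.4, 103 and, in the deep library, 6.25 CPM in the dark group. Levels in P815-M tumors were 0, 0.438 and 4.82 CPM in light and 6.72, 12.4 and 0 CPM in the dark. Cfd thus held the most counts of the 10 genes in the first 2 P815-IFNG dark libraries, and it was at 0 in 1 library of each P815-M group.

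The droplet genes followed a similar order of libraries. Plin1 encodes perilipin 1, the coat protein of the adipocyte droplet that gates lipolysis (chromosome 7, 79720218 to 79732903). It had 1.23, 1.85 and, in the deep library, 4.52 CPM in P815-IFNG light, and 17.1, 24.5 and, in the deep library, 0.644 CPM in P815-IFNG dark. In P815-M tumors it had 3.68, 0 and 3.07 CPM in light and 0.395, 3.68 and 0.398 CPM in the dark. The P815-M light libraries with Plin1 counts exceeded the first 2 P815-IFNG light libraries, so the lines overlapped in light.

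Plin4 encodes perilipin 4, a further droplet protein (chromosome 17, 56100591 to 56109803). It had 2.87, 5.56 and, in the deep library, 8.70 CPM in P815-IFNG light, and 23.7, 36.4 and, in the deep library, 1.64 CPM in P815-IFNG dark. The P815-M light libraries had 1.38, 0.877 and 0.438 CPM, and the P815-M dark libraries had 1.19, 2.30 and 1.19 CPM. The highest P815-M value stayed below every P815-IFNG light library, whereas the deep dark library fell among the P815-M values. Cidec promotes the fusion of droplets into one large droplet (chromosome 6, 113424634 to 113435760). It had 5.33, 1.39 and, in the deep library, 10.01 CPM in P815-IFNG light, and 38.1, 50.5 and, in the deep library, 1.34 CPM in P815-IFNG dark. Levels in P815-M tumors were 0, 0.877 and 0.438 CPM in light and 0.395, 4.14 and 0 CPM in the dark. The first 2 P815-IFNG dark libraries were again far above the rest, and the deep dark library lay within the range of P815-M dark tumors.

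Fabp4 encodes the fatty acid carrier of the adipocyte cytosol (chromosome 3, 10204088 to 10208576). It had 6.96, 4.17 and, in the deep library, 60.3 CPM in P815-IFNG light, and 43.6, 57.7 and, in the deep library, 9.96 CPM in P815-IFNG dark. In P815-M tumors it had 0, 1.32 and 4.82 CPM in light and 3.95, 6.44 and 0.398 CPM in the dark. The deep light library was at the level of the first 2 P815-IFNG dark libraries in Fabp4, and it was well below them in Cfd, Cidec, Plin1 and Plin4. In Adipoq it had 9.44 CPM against 11.9 and 10.1 CPM. In Lep and Retn its value lay between those of the 2 dark libraries.

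Pparg had low levels throughout (chromosome 6, 115360951 to 115490399). It had 1.64, 0.927 and, in the deep library, 1.42 CPM in P815-IFNG light, and 4.89, 2.16 and, in the deep library, 1.12 CPM in P815-IFNG dark. The P815-M light libraries had 0, 0.438 and 2.63 CPM, and the P815-M dark libraries had 1.58, 0 and 1.99 CPM. The groups overlapped in every comparison.

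Lipe, which encodes hormone-sensitive lipase, stood apart from the other 9 genes (chromosome 7, 25379527 to 25398710, minus strand). It had 20.1, 19.5 and, in the deep library, 14.4 CPM in P815-IFNG light, and 41.2, 35.4 and, in the deep library, 9.96 CPM in P815-IFNG dark. Levels in P815-M tumors were 36.4, 31.1 and 34.2 CPM in light and 22.5, 29.0 and 18.7 CPM in the dark. Lipe was thus well above the floor in every P815-M library, where the other members had 0 to 12.4 CPM. Its exons overlapped those of 4732471J01Rik, an antisense gene, over 918 bases or 15.6% of their length. That gene had 68.4 to 272 CPM in the 10 libraries and 6.01 and 3.64 CPM in the deep ones. The kit was stranded, the counting is stated only as the default, and whether that matches the strand of the kit is not stated, so reads of Lipe and of its antisense partner may not be told apart, and the part of 4732471J01Rik in the Lipe values was not tested. Of the other members, Plin4 shared 17 exon bases with Hdgfl2, and the remaining 8 shared none with any gene.

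**Figure D1:**
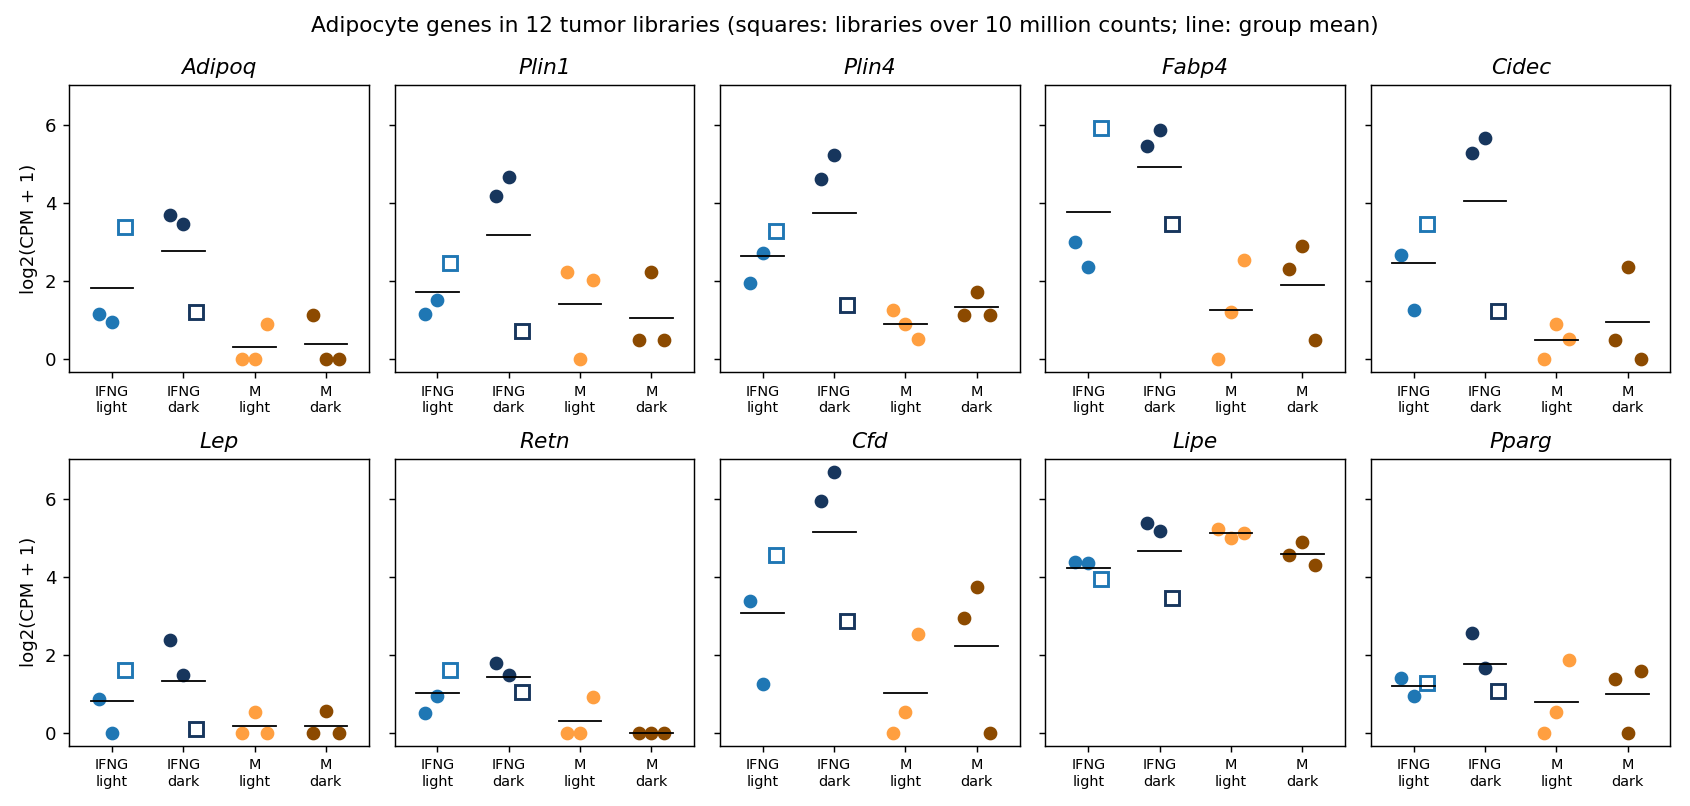
Level of each adipocyte gene in the 12 libraries, as log2 of CPM plus 1, by tumor line and light condition. Circles are the 10 shallower libraries, squares the 2 deep libraries and lines the group means; for Adipoq, Plin1, Plin4, Cidec and Cfd the first 2 P815-IFNG dark libraries are the highest of the 12, and Lipe is present in all groups.

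The other 9 genes were also summed, a choice made after the values of Lipe were seen. Their summed level was 29.9 CPM (95% Wilson interval 23.8 to 37.6) and 17.1 CPM (12.4 to 23.6) in P815-IFNG light tumors and 121 CPM (118 to 125) in the deep light library. In P815-IFNG dark tumors it was 206 CPM (190.4 to 224) and 288 CPM (269 to 309), with 23.4 CPM (21.9 to 24.9) in the deep dark library. In P815-M tumors it was 5.06, 4.38 and 18.0 CPM in light and 15.4, 29.5 and 3.98 CPM in the dark. These intervals cover counting error only and not the spread between mice. Every library had counts of the 9 genes, but P815-M light replicates 1 and 2 and P815-M dark replicate 3 had only 11, 10 and 10. In P815-M dark replicate 3, 5 of these counts were of Pparg, so adipocyte transcripts are not shown for every tumor. Within P815-IFNG dark tumors the sum ranged from 23.4 to 288 CPM.

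**Figure D2:**
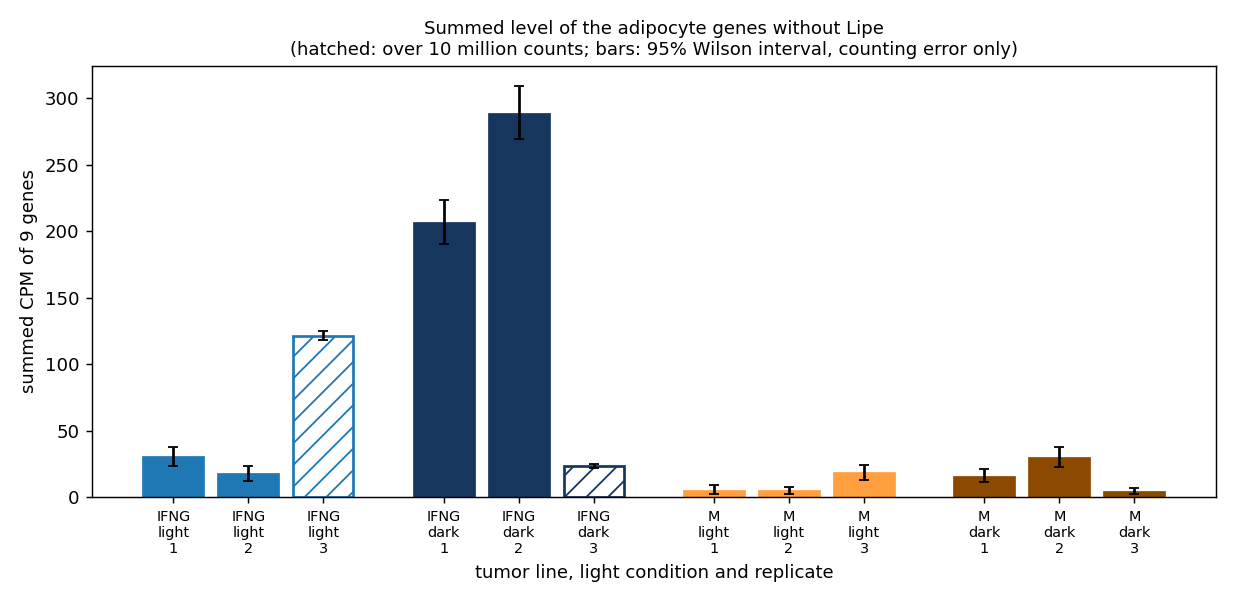
Summed CPM of the 9 adipocyte genes without Lipe, 1 bar per library, with 95% Wilson intervals for counting error. Hatched bars are the 2 deep libraries; the bars of P815-IFNG dark replicates 1 and 2 reach 206 and 288 CPM, the deep light library 121 CPM, and the other 9 libraries at most 29.9 CPM.

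Per kilobase of exon, the order of the genes was similar in the libraries with the highest summed CPM of the 9 genes. Cfd led with 65.5, 112 and 24.7 CPM per kb in P815-IFNG dark replicates 1 and 2 and in the deep light library. Cidec came next in both dark libraries with 20.5 and 27.2 CPM per kb, whereas Fabp4 came next in the deep light library with 13.4 CPM per kb. In the deep dark library Cfd led with 6.77 CPM per kb, followed by Fabp4 with 2.22 and Lipe with 1.69 CPM per kb. The exon length used for Fabp4 was 4489 bases, its whole span from 10204088 to 10208576. Its level per kb would be higher with a shorter transcript, so the rank of Fabp4 is not settled here. Of the counts of the 9 genes, Fabp4 held 21.2% and 20.0% in P815-IFNG dark replicates 1 and 2, 49.7% in the deep light library and 42.6% in the deep dark library. Fabp4 thus took a larger share in both deep libraries than in these 2 libraries. Levels between genes are compared per length only here.

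The first comparison asked how light and dark P815-IFNG tumors differed. All 10 genes had a lower fitted level in light than in the dark, where 48.3% of all genes had a higher one, although 5 turned with ComBat-seq adjustment for the deep libraries and Lep turned without P815-IFNG dark replicate 1. None passed the test, and the direction was opposite in the 2 kinds of library. In the other 4 libraries both light values were below both dark values for 10 of 10 genes. In the deep pair the light value was above the dark value for 10 of 10 genes. The shares of all genes with either order were not counted, so both counts are descriptions only. Lep and Retn rested on at most 2 counts per library in the 2 shallower light libraries. In the 4 libraries the mean of the 9 summed genes was 23.5 CPM ± 9.02 (SD, n = 2) in light and 247 CPM ± 57.9 (SD, n = 2) in the dark, a ratio of 0.0951. In the deep pair the ratio of light to dark was 5.19 (95% exact interval for counting error 4.84 to 5.57), with no replicate. By gene, the ratio in the deep pair was 7.33 for Adipoq, 7.48 for Cidec, 7.01 for Plin1, 6.05 for Fabp4, 5.32 for Plin4 and 3.64 for Cfd. It was 1.94 for Retn, 1.45 for Lipe and 1.27 for Pparg, whose interval of 0.842 to 1.93 included no difference. For Lep, with 80 against 3 counts, it was 27.8 with an interval of 9.16 to 137.

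**Figure D3:**
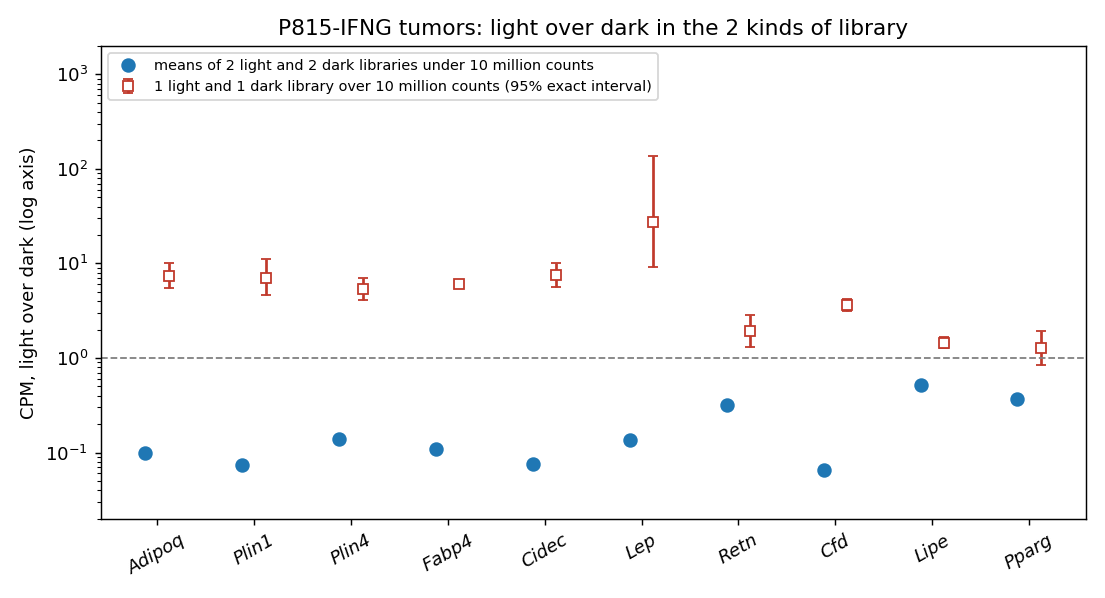
Ratio of CPM in light to dark for each adipocyte gene in P815-IFNG tumors, on a log axis. Circles compare the means of 2 light and 2 dark shallower libraries and squares the single deep light and deep dark library with 95% exact intervals for counting error; every circle lies below 1 and every square above 1.

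With all 12 libraries in the fit, edgeR's quasi-likelihood test called 0 of the 10 members in this comparison, where 0.0% of 18804 genes were called. At an unadjusted p under 0.05 it found 0 members and 2.18% of all genes, and DESeq2 called 0 members. The median log2 fold change of the members was -0.86 against -0.02 over all genes, and with ComBat-seq adjustment it was 0.038, with Plin1, Fabp4, Cidec, Lep and Cfd then higher in light. The largest differences were those of Cidec at -2.30 (SE 1.19), Plin1 at -2.30 (SE 1.25) and Cfd at -2.24 (SE 1.27), with an adjusted p of 1 for each by edgeR with Benjamini-Hochberg adjustment. No member had light libraries that were all below the dark libraries, which 3.59% of genes had. Without the deep libraries edgeR called 0 members against 0.0059% of 16944 genes, the median was -2.85, and 7 members had an unadjusted p under 0.05 against 10.7% of all genes. The largest differences were then -3.74 (SE 0.89) for Cfd, -3.58 (SE 0.98) for Plin1 and -3.53 (SE 0.75) for Cidec, with adjusted p-values of 0.227, 0.251 and 0.208 by edgeR. That fit rests on 2 mice per P815-IFNG group.

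In P815-M tumors, light and dark showed no member past the test. edgeR called 0 of 10 members, where 0.0% of genes were called, with 0 members and 2.71% of all genes at an unadjusted p under 0.05, and 0 members called by DESeq2. The median log2 fold change was -0.30 against 0.01 over all genes, and it was 0.06 without P815-M light replicate 1 and 0.41 without P815-M dark replicate 2. Adipoq, Lep and Retn had at most 3 counts in each group, so no fold is given. The largest difference with more than 3 counts in both groups was that of Cfd at -1.86 (SE 1.54), from 12 counts in light and 44 in the dark. Lipe had 33.9 CPM in light against 23.4 CPM in the dark on average (n = 3 each) and a log2 fold change of 0.56 (SE 0.46). It was the 1 member whose light libraries all lay above the dark ones, as 9.48% of genes did. Without the deep libraries, which belong to the other line but share the estimate of spread, 0 members were called by edgeR against 0.927% of genes, with 1 at an unadjusted p under 0.05 against 14.0% of all genes.

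Between the lines in light, 9 of the 10 members had a higher fitted level in P815-IFNG than in P815-M tumors, as 56.7% of all genes did, of which Plin1 and Pparg turned with other settings or without single libraries, and none passed the test. edgeR called 0 members where 0.016% of genes were called, and DESeq2 called 0. At an unadjusted p under 0.05 it found 4 members, Plin4, Fabp4, Adipoq and, in the opposite direction, Lipe, against 6.79% of all genes. The median log2 fold change was 2.52 against 0.15 over all genes, and 1.27 without the deep libraries. Fabp4 differed by 3.36 (SE 1.26) and Plin4 by 2.51 (SE 1.05), with an adjusted p of 0.629 for both by edgeR. Lipe was lower in P815-IFNG tumors, by -1.06 (SE 0.46), and the value of Plin1 was 0.08 (SE 1.35), turning to -0.61 without the deep libraries. Adipoq, Plin4 and Cidec were higher in every P815-IFNG library than in every P815-M library, 3 of 10 members against 12.0% of all genes. The nearest libraries of the lines held 2 counts each for Adipoq and 3 against 2 counts for Cidec, at or below the floor of 3 counts, so the order of these 2 genes cannot be told at this depth. Without the deep libraries 0 members were called by edgeR against 0.23% of genes, with 3 at an unadjusted p under 0.05 against 10.3% of all genes, and the Plin4 difference was 2.09 (SE 0.71). From the counts of those libraries, Cidec was 7.81-fold higher in P815-IFNG light tumors (95% exact interval 2.24 to 41.8), with 16 counts against 3, and Adipoq 3.66-fold (0.599 to 38.5), with 5 against 2. ComBat-seq adjustment for the deep libraries gave 5 called members, and 2 when followed by DESeq2.

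In the dark the lines stood furthest apart, and here the call depended on the deep libraries. All 10 members had a higher fitted level in P815-IFNG tumors, as 64.2% of all genes did, although the 0.06 (SE 0.46) of Lipe turned to -0.043 with DESeq2. With all libraries, edgeR called 0 members where 0.0106% of genes were called, DESeq2 called 0, and 5 had an unadjusted p under 0.05, namely Plin4, Retn, Cidec, Adipoq and Fabp4, against 6.86% of all genes. The median log2 fold change was 3.27, or 3.07 with Retn at its bound, against 0.33 over all genes. Plin4 differed by 3.49 (SE 0.95), Cidec by 4.08 (SE 1.35), Fabp4 by 3.14 (SE 1.18), Plin1 by 3.00 (SE 1.34) and Cfd by 2.92 (SE 1.31), each with an adjusted p of 0.604 by edgeR. Adipoq, Fabp4 and Retn did not overlap between the lines, 3 of 10 members against 17.9% of all genes. For Adipoq, however, the deep dark library at 1.29 CPM stood next to a P815-M library with 3 counts (1.19 CPM). Retn had 1.07 CPM in the deep dark library, below the 1.19 to 1.38 CPM that 3 counts stand for in P815-M dark libraries. The order of Retn thus cannot be told at that depth.

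Without the deep libraries, 6 of the 10 members were called higher in P815-IFNG dark tumors, where 2.19% of 16944 genes were called in either direction. Plin4 was higher by 4.05 (SE 0.54) on the log2 scale, with an adjusted p of 3.68e-04 by edgeR's quasi-likelihood test. Cidec was higher by 4.71 (SE 0.80, adjusted p 0.00264 by edgeR), Fabp4 by 3.62 (SE 0.65, adjusted p 0.00709), Cfd by 3.50 (SE 0.75, adjusted p 0.0206) and Plin1 by 3.61 (SE 0.86, adjusted p 0.0254). Adipoq, with 62 counts against 3, was 26.5-fold higher (95% exact interval for counting error 8.65 to 132), with an adjusted p of 0.0206 by edgeR. Retn, with 12 counts against 0, was at least 5.12-fold higher when the 3 P815-M libraries were set at 3 counts in all, and Lep was 21.8-fold higher (3.41 to 910), with 17 counts against 1, without passing the test. Lipe differed by 0.49 (SE 0.24) and Pparg by 1.30 (SE 1.06), without passing it. With the deep libraries kept as a batch term, Plin4 and Cidec were called, at 2 of 10 members. The P815-IFNG dark group then rested on 2 mice, which both stood high, and the third mouse is the deep library, which stood low.

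The light effect was also compared between the lines. edgeR's test of that difference called 0 of 10 members, where 0.0% of genes were called, with 0 members and 1.66% of all genes at an unadjusted p under 0.05, and 0 members called by DESeq2. The median difference was -0.76 in log2 fold change against -0.01 over all genes, and it was -2.13 without the deep libraries and 0.38 after ComBat-seq adjustment. Without the deep libraries the difference was below 0 for all 10 members, of which 3 had an unadjusted p under 0.05 against 7.70% of all genes and 0 were called by edgeR.

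Other genes of the fat cell program were read from 6 lists, and with all libraries 0 of their genes were called in any comparison between groups by edgeR or by DESeq2. Of their 60 tested genes other than the members, edgeR found 7 at an unadjusted p under 0.05 for P815-IFNG light against dark, 4 for P815-M light against dark, 4 between the lines in light and 10 between the lines in the dark. The shares of all genes were 2.18%, 2.71%, 6.79% and 6.86% in the same order, so the count between the lines in light was at the level of all genes. Without the deep libraries, calls appeared in 4 of the lists between the lines in the dark, where 2.19% of all genes were called. Of the lipid synthesis genes, 4 of 14 were called higher in P815-IFNG dark tumors and none lower, namely Scd1, Gpd1, Dgat2 and Pck1. Scd1, the desaturase that makes monounsaturated fatty acids, had 178 and 398 CPM in the first 2 P815-IFNG dark libraries, 42.2 and 29.7 CPM in the first 2 light libraries and 8.28 to 19.4 CPM in P815-M tumors. In the deep libraries Scd1 had 95.8 CPM in light and 12.0 CPM in the dark, the same order as the members. Its difference between the lines in the dark was 4.05 (SE 0.36, adjusted p 1.48e-05 by edgeR), and in P815-IFNG tumors light was lower than dark by -2.87 (SE 0.37, adjusted p 0.0272 by edgeR), both without the deep libraries. Pck1 encodes an enzyme on the path to glycerol phosphate for triglycerides in fat. It had 12.2 and 16.6 CPM in the first 2 P815-IFNG dark libraries and no count in P815-M dark tumors. Gpd1 was higher by 1.91 (SE 0.44) and Dgat2, an enzyme of triglyceride synthesis, by 2.84 (SE 0.73).

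Of 8 genes of fatty acid uptake and transport, Cd36 and Acsl1 were called higher in P815-IFNG dark tumors without the deep libraries, by 1.86 (SE 0.41) and 1.34 (SE 0.33). Between the lines in the dark, 2.19% of all genes were called there in either direction. Of 9 tested adipogenic transcription factors, Cebpa was called, by 1.54 (SE 0.26), and of 12 tested adipokines and receptors C3ar1, by 1.25 (SE 0.24). Of 10 tested genes of lipid droplets and lipolysis, 0 were called in that comparison by edgeR, with 5 at an unadjusted p under 0.05 against 19.5% of all genes. In P815-M tumors Cd36, Plin2 and Cebpa were called higher in light than in the dark without the deep libraries, by 2.21 (SE 0.38), 1.01 (SE 0.22) and 1.27 (SE 0.25). Of all genes, 0.927% were called there in either direction, and the median of the members was -0.30 with all libraries. Plin2 coats droplets in many cell types, and Cd36 and Cebpa are also found in macrophages. The most abundant genes of the lists by mean CPM were Cebpd at 94.7, Plin3 at 83.5, Lpl at 61.6, Scd2 at 452 and Cap1 at 254, each present in all libraries, including those where most members were at or near 0.

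Genes of brown and beige fat were low. Their 8 genes summed to 1.19 to 6.55 CPM over the 12 libraries, with Cox7a1, a subunit of muscle and fat mitochondria, highest at a mean of 2.18 CPM. Cidea was listed at 0 in all 12 libraries, and Ucp1, the uncoupling protein of brown fat, had counts only in the deep dark library, at 0.0992 CPM. In the 10 shallower libraries 3 counts correspond to 1.05 to 1.39 CPM, so a count of 0 there allows levels up to that size.

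Markers of other cells near a subcutaneous tumor moved with some of these values. The summed level of 8 endothelial genes was 184 and 202 CPM in the first 2 P815-IFNG dark libraries, 94.2 and 100.1 CPM in the first 2 light libraries, 51.3 to 85.0 CPM in P815-M light and 52.9 to 127 CPM in P815-M dark, with 105 and 118 CPM in the deep light and dark libraries. Macrophage genes summed to 1519 and 2327 CPM in the first 2 P815-IFNG dark libraries, and to 871 to 1235 CPM in the other 8 shallower libraries. In the deep light and dark libraries macrophage genes summed to 719 and 505 CPM. The part of these cells in the adipocyte values was not tested.

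Fibroblast genes summed to 6917 and 13423 CPM in the first 2 P815-IFNG dark libraries and to 4199 to 5873 CPM in the other 10 libraries. Skeletal muscle genes summed to 759.7 and 169 CPM in the first 2 P815-IFNG dark libraries, and also reached 490.4 CPM in 1 P815-M light library and 652 CPM in 1 P815-M dark library, the libraries that held the highest adipocyte sum of their groups. Muscle genes had 114 to 132 CPM in the first 2 P815-IFNG light libraries and 159 and 249 CPM in the deep light and dark libraries. Keratinocyte genes summed to at most 9.64 CPM, with Krt5, Krt14, Krt1, Trp63 and Dsg1a at 0 in every library, so these defining genes of the epidermis had no count. Between the lines in the dark without the deep libraries, where 6 members were called, edgeR also called 3 of 8 macrophage genes (Mertk, C1qa and C1qb), 2 of 8 fibroblast genes (Dcn and Lum) and 1 of 8 muscle genes (Myh4) higher in P815-IFNG tumors. None of the 8 endothelial genes was called there, and 3 had an unadjusted p under 0.05. The shares of all genes in that comparison were 2.19% called in either direction and 19.5% at an unadjusted p under 0.05. The part of muscle and fibroblasts in the adipocyte values was not tested.

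**Figure D4:**
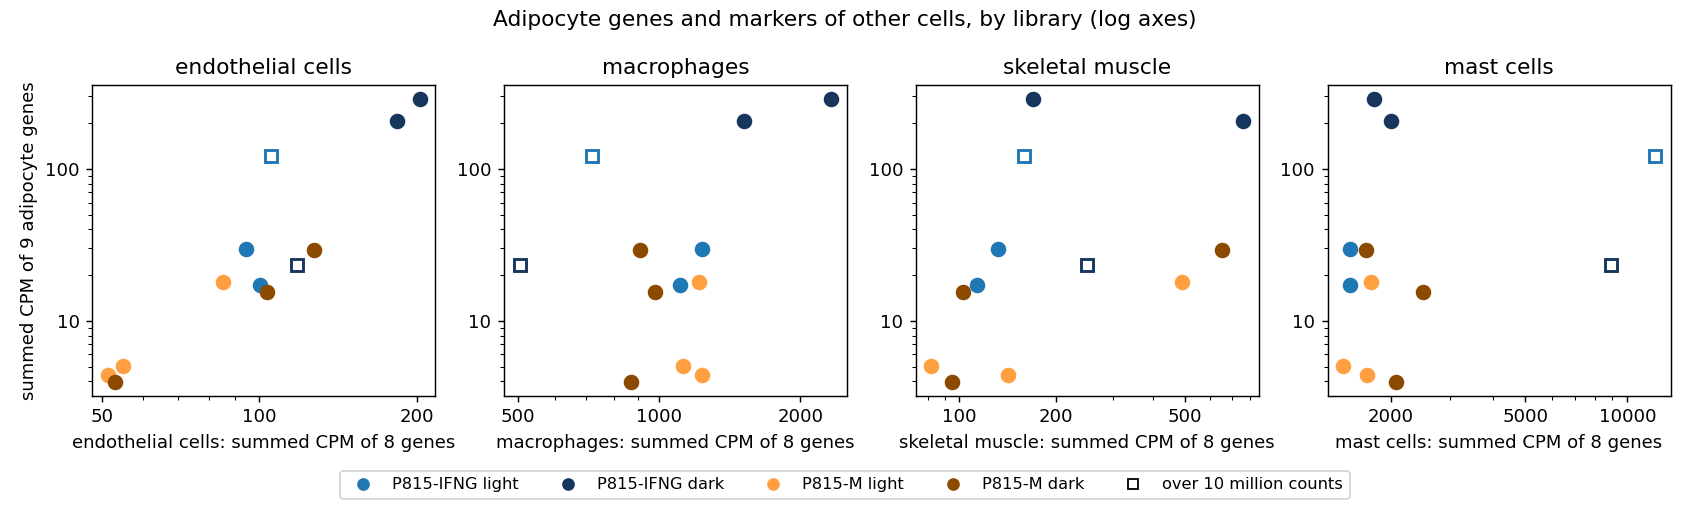
Summed CPM of the 9 adipocyte genes without Lipe against the summed CPM of 8 marker genes each of endothelial cells, macrophages, skeletal muscle and mast cells, 1 point per library, on log axes. Squares are the 2 deep libraries, which lie far to the right in mast cell genes; the 2 highest points are P815-IFNG dark replicates 1 and 2.

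Over the 10 shallower libraries, the members varied together apart from Lipe and Pparg. The correlation of each gene with the mean of the others, on the log2 CPM scale (prior count 2), was 0.83 to 0.95 for the other 8 genes, 0.55 for Pparg and 0.45 for Lipe. These correlations are descriptions over 10 libraries, which share their groups and depth. Among 12466 other genes with at least 100 counts in these libraries, the pattern most like that of the members was that of Scd1 at r = 0.96, followed by Mybph, Gstt2, Atp9a, Slc25a25, Slco2b1, Ufc1, S1pr1, Dennd3 and Qdpr, at 0.95 to 0.92. Of these 10 genes, Scd1 had the widest range, and Mybph, a muscle myosin-binding protein, had 0 to 23.5 CPM. For whole lists, the correlation used another measure, log2 of the summed CPM plus 1, so it does not rank beside that of single genes. This list correlation was 0.96 for endothelial genes, 0.76 for macrophages, 0.74 for fibroblasts, 0.54 for skeletal muscle, 0.12 for mast cells and -0.19 for keratinocytes. For the lists of the fat cell program it was 0.79 for lipid droplets and lipolysis, 0.70 for lipid synthesis, 0.63 for transcription factors, 0.50 for adipokines and receptors, 0.42 for brown and beige fat and 0.28 for fatty acid uptake, each below the value of the endothelial genes.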

How the data were processed

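RNA-seq data of 12 tumors were used, in 4 groups of 3 mice that the labels give. The deposited values are raw counts by gene symbol. The authors prepared stranded mRNA libraries, aligned the reads with STAR 2.7.9a to mm10 extended by the knock-in sequences, and counted them with HTSeq 0.13.5 at its default setting, per the labels and methods. DESeq2 1.32.0 is also named there. The paper's methods state a batch adjustment of the counts with ComBat-seq before DESeq2 with IHW, without naming the batches. Here ComBat-seq was run among the alternatives, with the deep libraries as the batch. The annotation release is not given in the sources used here. The members, gene lists and tests were chosen with earlier results of these data known.

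The 13 mitochondrial rows were removed, genes with at least 10 counts in all were tested, and comparisons were fitted in edgeR 4.0.16 under R 4.3.3 (TMM, 1 mean per group, quasi-likelihood test, Benjamini-Hochberg adjustment over all genes). A call needed an adjusted p no higher than 0.05 and a log2 fold change of 1 or more in size. Group non-overlap was counted over 18798 genes with unique symbols. Intervals at 95% and the floor of 3 counts cover counting error only. An exact permutation test of 3 against 3 cannot go below 0.1, so none is given. The alternatives were DESeq2 1.42.0, its size factors, other filters, a replicate block, mitochondrial genes kept, fits of the compared libraries alone, the deep libraries as a batch term or with ComBat-seq (sva 3.50.0), no minimum fold change, and libraries left out. All members are named, and other genes only where a list's highest mean, a call, absence in all libraries or likeness named them, apart from markers that describe the samples. Coordinates and exons are from GENCODE M21 on GRCm38, and promoters from RefSeq on GRCm38.p6, which holds entries for 9 of the 10 members. The code was tested on simulated data.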

Additional observations from a re-analysis of the deposited data

Results flagged for a closer look

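The summed level of the 9 adipocyte genes without Lipe differed in direction between the 2 kinds of P815-IFNG library. Light over dark was 5.19 in the single pair of deep libraries and 0.0951 in the means of the other 2 light and 2 dark libraries, where both light values lay below both dark values. The difference was not tested, because the deep pair has 1 mouse per group.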

How the results depend on the processing

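ComBat-seq with edgeR gave the most calls of the alternatives run in each comparison. Over all genes, calls for P815-IFNG light against dark were 0 in the design of the report and 4 with DESeq2, 2 with the batch term, 180 with ComBat-seq, 85 with ComBat-seq and DESeq2 and 1 without the deep libraries. For P815-M light against dark they were 0, and 1 with DESeq2, 244 with only the libraries compared, 194 with the batch term, 261 with ComBat-seq, 220 with ComBat-seq and DESeq2 and 157 without the deep libraries. Between the lines in light they were 3, and 41 with DESeq2, 0 with only the libraries compared, 4 with the replicate block, 82 with the batch term, 272 with ComBat-seq, 176 with ComBat-seq and DESeq2 and 39 without the deep libraries. Between the lines in the dark they were 2, and 38 with DESeq2, 4 with DESeq2's size factors, 4 with filterByExpr, 0 with only the libraries compared, 7 with the replicate block, 290 with the batch term, 579 with ComBat-seq, 444 with ComBat-seq and DESeq2 and 371 without the deep libraries. For the difference between the lines in the light effect they were 0, and 4 with DESeq2, 3 with the batch term, 49 with ComBat-seq, 15 with ComBat-seq and DESeq2 and 2 without the deep libraries. With 1 library left out they ranged from 1 to 4 between the lines in light and from 1 to 6 in the dark, and were 0 elsewhere.

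Members called stayed at 0 except between the lines. In light they were 5 with ComBat-seq and 2 with ComBat-seq and DESeq2. In the dark they were 2 with the batch term, 6 with ComBat-seq, 2 with ComBat-seq and DESeq2 and 6 without the deep libraries. The members' median turned to 0.038 with ComBat-seq for P815-IFNG light against dark, and for the difference between the lines in the light effect to 0.38 with ComBat-seq and 0.26 with ComBat-seq and DESeq2. With 1 library left out, the P815-M light against dark median ranged from -1.03 to 0.41. For P815-IFNG light against dark, ComBat-seq and ComBat-seq with DESeq2 turned Plin1 to 1.20 and 0.90, Fabp4 to 1.04 and 0.88, Cidec to 1.30 and 1.08, Lep to 1.19 and 0.83 and Cfd to 0.22 and 0.063, in log2 fold change. Between the lines in light, Plin1 turned to -0.13 with DESeq2, -0.079 with its size factors, -0.0066 with filterByExpr and -0.61 without the deep libraries. In the dark, Lipe turned to -0.043 with DESeq2, -0.042 with its size factors and -0.056 with the replicate block. With 1 library left out, Lep in P815-IFNG light against dark ranged from -1.96 to 0.34, Pparg in P815-M light against dark from -2.27 to 0.38, Plin1 and Pparg between the lines in light from -0.60 to 0.68 and from -0.30 to 2.33, and Lipe between the lines in the dark from -0.29 to 0.49. The causes were not tested.

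Deviations from the group mean correlated over 0.1 in 7 of 18 pairs of same-numbered libraries (-0.18 to 0.87, median 0.04). For pairs with different numbers it was 6 of 36 (-0.72 to 0.57, median -0.03). These values cannot decide whether the numbers pair the mice, which the labels do not state. The replicate block called 0 members in every comparison. The filterByExpr fit leaves out Lep, Retn and Pparg. In the 10 shallower libraries, members under 1.05 to 1.39 CPM rest on at most 3 counts.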

Other observations

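The values do not tell how much fat tissue was taken with each tumor, since tissue handling is not described per mouse. P815-IFNG groups have 2 mice once the deep libraries are left out. Whether the third P815-IFNG replicates differ from the others by the mouse, by the library or by the strand counted cannot be told apart.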
